A study of Rattus norvegicus with 9 samples.

Results

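Pools of 400 dendrites were set against pools of 100 dendrites of cultured rat hippocampal neurons, gene by gene, across gene families and across levels of signal. The comparison was defined by the labels alone, as the 3 arrays of pools of 400 dendrites and the 3 arrays of pools of 100, which are 6 of the 9 arrays of the series. The pools of 200 dendrites, 3 arrays, shared the model's estimate of spread. They thus entered the p-values, standard errors and intervals of that model, and the choice of genes by p. Otherwise they entered only where named. Of 31042 probe sets that are not array controls, 20826 name 1 gene, and these cover 14217 genes.

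The neurons came from untreated Sprague-Dawley rat embryos at embryonic day 19 and had been kept in culture for 14 days. Per the labels the cells were pyramidal neurons, the excitatory cells of the hippocampus. The cell bodies were drawn off with a glass pipette, the severed processes were collected from several cells, and their RNA went through repeated linear amplification before hybridisation to Affymetrix rat arrays. Both pool sizes share this strain, age and procedure, so that the number of dendrites in a pool is the difference the labels name. In these cells an axon cannot be told from a dendrite by its shape, so a pool can hold some axonal RNA. The labels call the replicates biological but do not tie them to cultures or litters, so the p-values below measure the spread between these arrays.

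Dendrites receive a neuron's synaptic input, and they hold a selected part of its mRNA, carried out along microtubules in granules of RNA and protein and translated near the synapse. A severed dendrite yields very little RNA, so expression studies pool many dendrites and copy the RNA several times over by in vitro transcription. A pool averages over the processes in it, and each amplification adds error of its own. The comparison of 400 with 100 dendrites therefore asks whether a larger pool showed other transcripts, or gave arrays that lay closer together.

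Replicate 1 of each pool size stood apart from the other arrays. The hybridisation controls, bacterial and phage transcripts that are added just before hybridisation (18 probe sets), had a mean log2 signal of 13.85 in replicate 1 of the pools of 100 and of 13.34 in replicate 1 of the pools of 400. In the other 4 arrays that mean lay between 11.64 and 12.15. The same 2 arrays held the fewest distinct values, 1673 and 1532 among the 31042 probe sets, against 2974 to 4043 in the others. Their mean Pearson's correlation with the other 5 arrays was 0.77 and 0.74, against 0.80 to 0.83, and the pair correlated least with each other, at 0.68. What sets these arrays apart was not tested, and the results that rest on them are given with and without them. The poly-A controls, which are meant to be added to the sample as RNA, had means of 6.71 to 6.96 over the 6 arrays. These means lay below the array medians of 7.46 to 7.53. At that level the poly-A controls could not show whether the arrays differed before hybridisation.

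**Figure D1:**
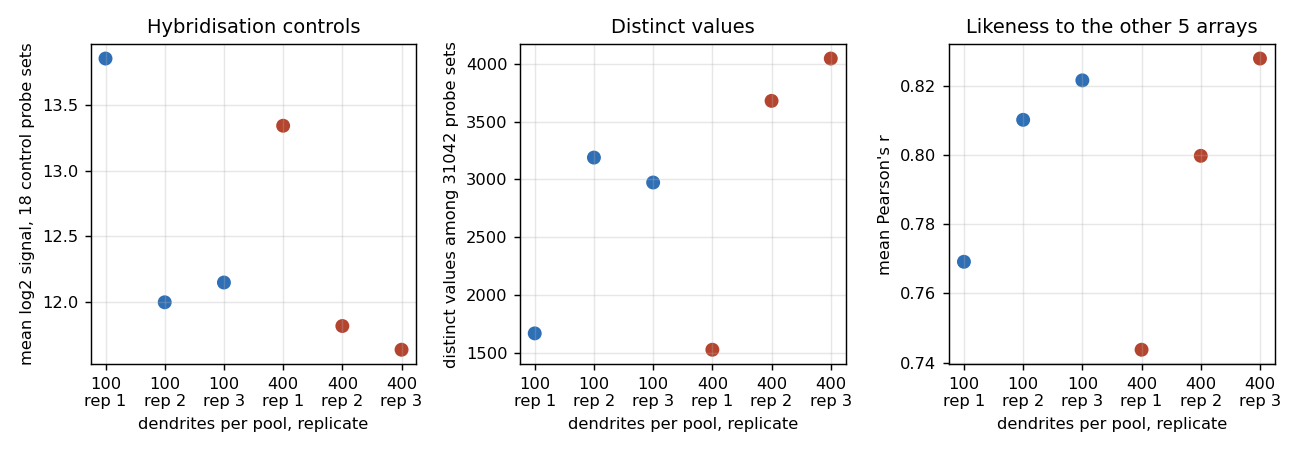
Mean log2 signal of the 18 hybridisation control probe sets (left), number of distinct values among 31042 probe sets (middle) and mean Pearson's correlation with the other 5 arrays (right), 1 point per array, blue for pools of 100 dendrites and red for pools of 400. Replicate 1 of each pool size has the highest control signal (13.85 and 13.34), the fewest distinct values (1673 and 1532) and the lowest mean correlation (0.77 and 0.74).

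No gene passed the test between the 2 pool sizes. By limma with Benjamini-Hochberg adjustment, 0 of 14217 genes (0%) had an adjusted p under 0.05, and the smallest adjusted p was 0.9991. Among the 20826 probe sets that name 1 gene it was again 0 (0%). At an unadjusted p under 0.05, 210 genes (1.48%) had a higher and 132 (0.928%) a lower mean in the pools of 400. Over probe sets these counts were 290 (1.39%) and 185 (0.888%). The 3 values of the pools of 400 all lay above the 3 of the pools of 100 in 522 genes (3.67%) and all below them in 367 (2.58%), and in 740 (3.55%) and 574 (2.76%) of the probe sets.

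The differences were centred near 0. Over all genes, the median difference of 400 minus 100 was 0.02 on the log2 scale, the quartiles were -0.26 and 0.29, and 51.5% of genes had the higher mean in the pools of 400. A difference over 1 on the log2 scale, in either direction, was seen in 593 genes (4.17%). The median standard error of a gene's difference was 0.45, and the 95% interval of a single probe set reached, at the median, 1.08 to either side. The number of arrays limits the precision, and the unadjusted interval of a typical probe set covers differences of about that size in either direction.

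With all 6 arrays, those of the same pool size were not more alike than those of different pool sizes. The mean Pearson's correlation within a pool size, minus that between pool sizes, was -0.02 over the probe sets naming 1 gene. None of the 20 ways to label 3 of the 6 arrays gave a lower value (one-sided exact permutation test for a higher correlation within, p = 1). The smallest p these labellings allow is 0.1, since each split of the arrays is counted in both orders. Replicate 3 of the pools of 400 correlated at 0.76 and 0.85 with replicates 1 and 2 of its own pool size, and at 0.82, 0.84 and 0.87 with replicates 1, 2 and 3 of the pools of 100. The difference was below 0 with Spearman's correlation (-0.03), among the brighter probe sets (-0.03), and without any 1 of the 6 arrays. Without replicate 1 of both pool sizes it was 0.0031, so the sign rested on those arrays, and correlations within and between pool sizes were then nearly equal.

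No difference in replicate spread passed the test. The typical SD between the 3 replicate arrays was 0.69 on the log2 scale for the pools of 400 and 0.63 for the pools of 100, a ratio of 1.09 (two-sided exact permutation test over the 20 labellings, p = 0.8). Replicate 1 of the pools of 400 decided on which side of 1 the ratio fell. Without it the ratio was 0.867, without replicate 1 of the pools of 100 it was 1.25, and without both it was 0.997. The smallest p that these 6 arrays allow is 0.1, so the test could not have passed the threshold of 0.05.

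The spread depended on the signal. When the probe sets naming 1 gene were split into 10 equal bins by their mean over the 6 arrays, the dimmest bin (means up to 6.01) had a typical SD of 0.40 in the pools of 400 and 0.43 in the pools of 100. In the 4th and 5th bins the SD was 0.76 to 0.79 in both pool sizes. In the brightest bin (means from 9.55 to 15.2), it was 0.72 in the pools of 400 and 0.37 in the pools of 100, a ratio of 1.95. The ratio was 0.92 to 1.13 in the 8 dimmer bins and 1.34 in the 9th. The high ratio at the bright end rested on 1 array. Without replicate 1 of the pools of 400, the SD of the brightest bin was 0.23 for the pools of 400 and the ratio 0.627, and without replicate 1 of both pool sizes the SDs were 0.23 and 0.22 and the ratio 1.04.

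The direction of the differences by signal followed the same array. From the 4th to the 9th bin, the median difference was 0.02 to 0.05 and 52.0% to 54.0% of probe sets had the higher mean in the pools of 400. In the brightest bin the median difference was -0.10 and only 41.3% had the higher mean, and 6.10% of its probe sets lay wholly lower in the pools of 400 against 3.99% wholly higher. The median signal of these 2083 bright probe sets was 10.44 in replicate 1 of the pools of 400, while the other 5 arrays had medians of 10.65 to 10.76. Without that array, the median difference of the brightest bin was 0.00 and 50.5% of its probe sets had the higher mean, and without replicate 1 of both pool sizes these values were 0.01 and 51.6%.

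**Figure D2:**
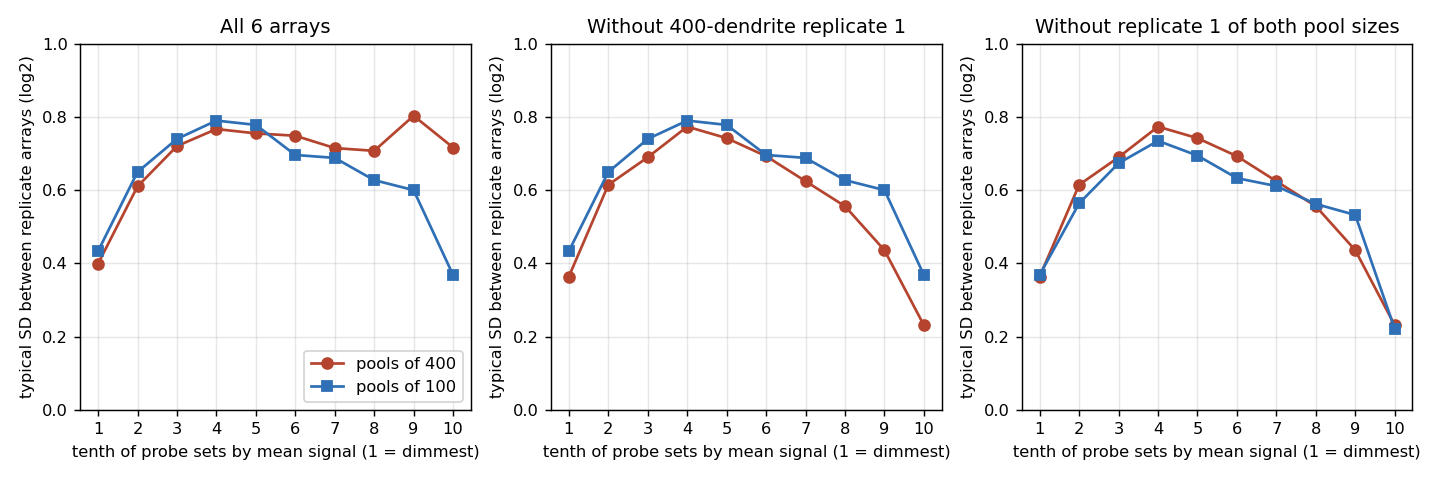
Typical SD between replicate arrays (log2) in 10 equal bins of the 20826 probe sets naming 1 gene, from the dimmest (1) to the brightest (10), for pools of 400 (red circles) and pools of 100 (blue squares), over all 6 arrays (left), without replicate 1 of the pools of 400 (middle) and without replicate 1 of both pool sizes (right). In the brightest bin the 2 pool sizes differ with all 6 arrays (0.72 and 0.37) and come together in the right panel (0.23 and 0.22).

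Probe sets of the same gene did not differ together. For 3061 genes measured by 2 probe sets, the correlation between the differences of the 2 probe sets was 0.03, and in 1540 of these genes (50.3%) both had the same sign. Pairs of bright probe sets did little better, since among 93 genes whose dimmer probe set had a mean above 9 on the log2 scale, the correlation was 0.15 and 45 had the same sign. Even the mean levels over the 6 arrays were only weakly related between the 2 probe sets of a gene, at a correlation of 0.07. These correlations are across genes, which share the arrays and are not independent replicates. No gene with several probe sets had an unadjusted p under 0.05 in 1 direction in all of them.

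**Figure D3:**
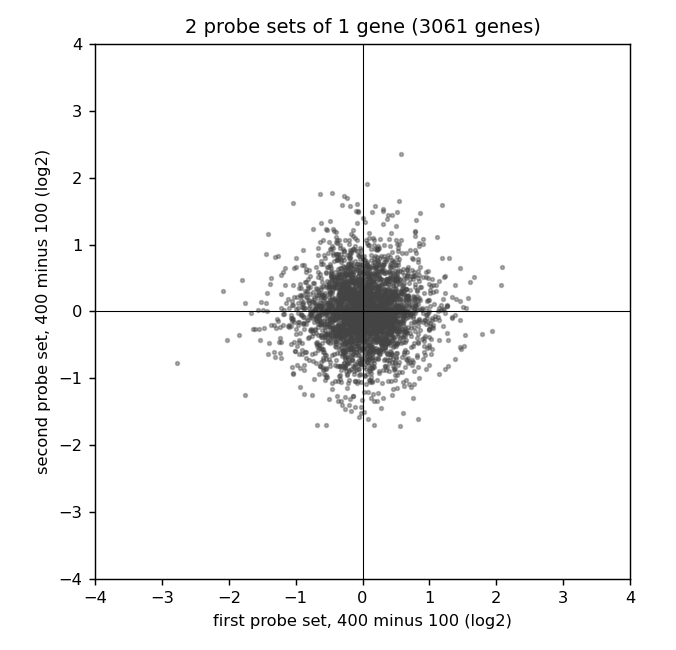
Difference of pools of 400 minus pools of 100 (log2) for the first (horizontal axis) and second (vertical axis) probe set of 3061 genes that have 2, 1 point per gene. The points form a round cloud about 0, with a correlation of 0.03 and the same sign in 50.3% of genes.

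The probe sets of smallest unadjusted p are described next, 12 in each direction, of which none passed the adjustment (each adjusted p 0.9998). They were chosen by that p, and all 24 had groups that did not overlap, so neither property is a finding. On the higher side, the differences were 1.35 to 3.21 on the log2 scale. Among them were Eea1, a tether of early endosomes, and Esyt2, an extended synaptotagmin that links the endoplasmic reticulum to the plasma membrane. Dop1b is of the Dopey family of trafficking proteins, and Actr2 is a subunit of the actin-branching Arp2/3 complex. Rac3 is a small GTPase that acts on the actin cytoskeleton. The others were Mllt3, a chromatin reader that works with elongation factors, Mrpl43 of the mitochondrial ribosome, Ube2v2, a ubiquitin-conjugating enzyme variant, the receptors Vipr1 and Ccr6, and Ccdc112 and Ttc9. The second probe set of Esyt2, which was brighter, had a difference of -0.07, and the further probe sets of Dop1b had -0.20 and -0.10.

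Mllt3 had the largest difference of the 24. Its log2 signal in replicates 1, 2 and 3 was 7.22, 8.33 and 10.71 in the pools of 100 and 11.65, 12.72 and 11.53 in the pools of 400, a difference of 3.21 ± 0.74 (SE). The pools of 100 spread over more than 3 log2 units, with replicate 3 close to the larger pools, and the 3 pools of 200 stood at 11.80 to 12.31, level with the pools of 400. The other probe sets of Mllt3 had differences of -0.45 and 0.08.

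Rac3 gave a steadier pattern, at 9.74, 10.83 and 10.61 in the pools of 100 and 12.14, 12.55 and 11.94 in the pools of 400. Its difference was 1.82 ± 0.51 (SE), with a 95% interval of 0.70 to 2.93, and the pools of 200 stood at 10.04 to 11.82, overlapping the pools of 100. Mrpl43 stood at 7.35, 8.09 and 7.02 in the pools of 100 and 8.47, 9.92 and 10.08 in the pools of 400. All 3 of its pools of 200, at 7.31 to 8.26, were below the lowest pool of 400.

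Eea1 was the case in which the pools of 100 varied least, at 5.46, 5.42 and 5.40, against 6.63, 6.91 and 7.59 in the pools of 400, and the pools of 200 (5.28 to 5.61) sat with the pools of 100. These values are near the dim end of the table, at the 15.9 percentile of mean signal. The second probe set of Eea1 was brighter and went the other way, with means of 8.92 ± 0.74 (SD, n = 3) in the pools of 100 and 7.87 ± 0.62 in the pools of 400. For Actr2, the other 2 probe sets also had higher means in the pools of 400, with differences of 0.80 and 0.74 beside 1.98 for the named one. Neither of these 2 had an unadjusted p under 0.05 by limma.

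On the lower side, the differences were -1.36 to -1.96. These genes were of mixed kinds. Among them were Rnaseh2c, a subunit of the nuclease that cuts RNA paired with DNA, Sart3, which recycles splicing particles, Khdc4, an RNA-binding protein with KH domains, Nup62 of the nuclear pore, Vipas39, which acts in endosomal sorting, and Zfp536, a zinc finger protein. Nectin2 is a cell adhesion molecule, Klk8 a secreted protease known as neuropsin, Cdkn3 a phosphatase of cell cycle kinases, Cd5l a protein secreted by macrophages and Dnai7 a gene of axonemal dynein, and Wdr17 completed the 12.

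Klk8 stood at 7.26, 8.57 and 7.51 in the pools of 100 and 6.36, 6.02 and 6.32 in the pools of 400, a difference of -1.55 ± 0.44 (SE). Its pools of 200, at 7.96 to 8.82, had a higher mean than the pools of 100, so the 3 pool sizes gave no order by number of dendrites. Nup62 stood at 8.71, 8.27 and 8.67 in the pools of 100 and 7.11, 7.60 and 6.82 in the pools of 400, and its pools of 200 lay between at 7.69 to 8.46. Nectin2 stood at 9.65, 10.32 and 10.62 against 8.07, 9.12 and 8.47, with the pools of 200 level with the pools of 100. Zfp536 shows how 1 array can narrow a gap, since its pools of 400 stood at 8.27, 6.50 and 6.79 and replicate 1 alone came near the pools of 100 (8.55 to 9.28).

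The mean of the pools of 200 lay between the means of the other 2 pool sizes for 10 of the 12 probe sets on the higher side and 10 of the 12 on the lower side. Since the 24 were chosen for separate groups at 100 and 400, this is a description of them. Without replicate 1 of both pool sizes, the unadjusted p of Khdc4 was 0.070, with a difference of -1.53, and those of the other 23 stayed under 0.05, from -2.21 in Cdkn3 to -1.10 in Dnai7 on the lower side and from 1.28 in Esyt2 to 2.73 in Ube2v2 on the higher side. The remaining arrays had served in choosing the 24, so these p-values are no separate check. Over all 31042 probe sets, the count at an unadjusted p under 0.05 rose from 687 to 1547 in that setting. With no true difference, a share of about 0.05 is expected under that threshold, and neither count was above that share.

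**Figure D4:**
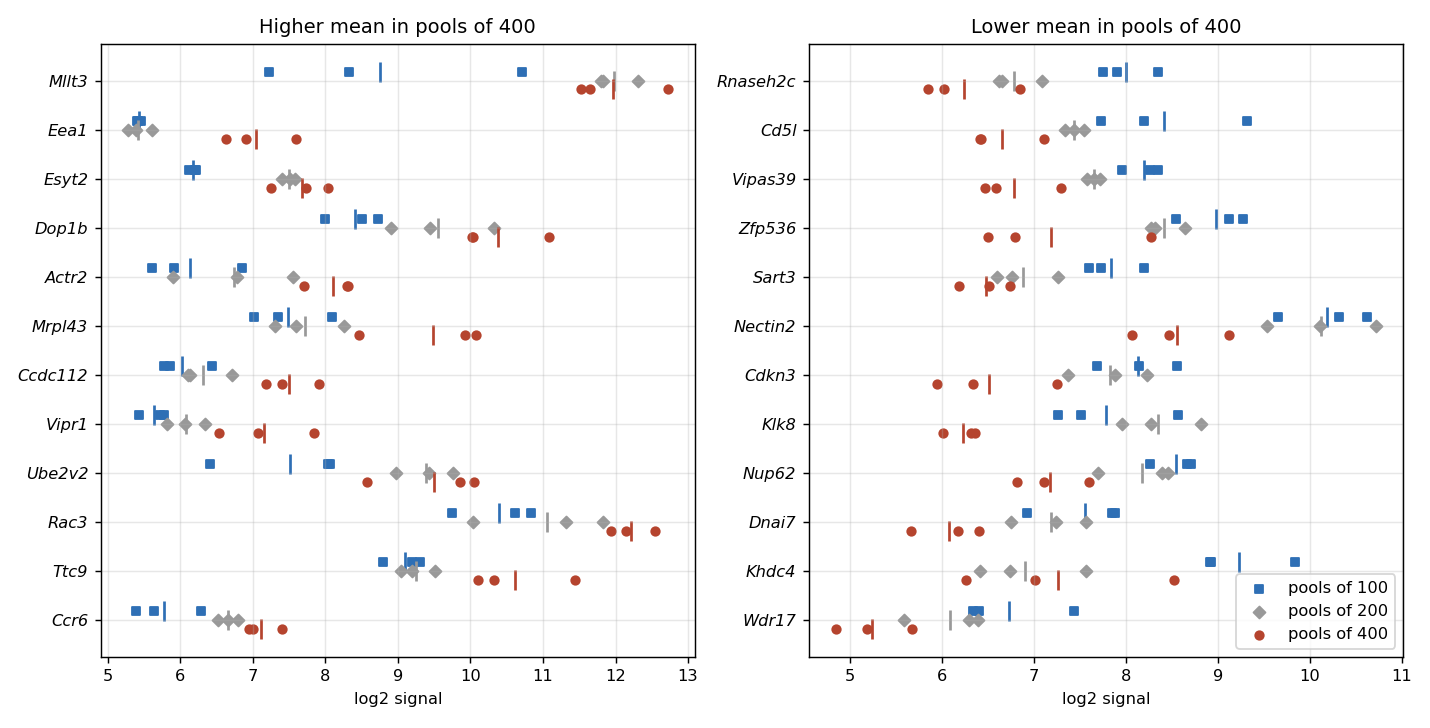
Log2 signal of the 12 probe sets of smallest unadjusted p on each side, named by gene, with 1 marker per array (blue squares for pools of 100, grey diamonds for pools of 200, red circles for pools of 400) and a vertical tick at each mean. The red and blue markers of a gene never overlap, as the choice of these probe sets favours, and the grey ones lie with either or between, as for Mllt3 (11.80 to 12.31) and Eea1 (5.28 to 5.61).

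Among probe sets whose groups did not overlap, the 8 largest differences on each side added further genes. On the higher side were Nr2f2 (2.56), a nuclear receptor and transcription factor, Rnf208 (2.48), a RING finger protein, Nefm (2.46), the middle neurofilament subunit, Psmd10 (2.45), a chaperone of proteasome assembly, Zfp57 (2.37), a zinc finger protein of imprinting control, Serpini1 (2.36), the neuronal protease inhibitor neuroserpin, and Ecpas (2.16), a proteasome adaptor. On the lower side were Ngly1 (-1.94), which strips sugars from misfolded glycoproteins, Pum2 (-1.89), an RNA-binding repressor found in dendritic granules, Rnf2 (-1.80), a ubiquitin ligase of Polycomb complexes, and Patj (-1.71), a scaffold of cell polarity.

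Psmd10 was at 6.40, 6.66 and 7.74 in the pools of 100 and 10.47, 8.89 and 8.80 in the pools of 400. Its highest value came from replicate 1 of the pools of 400, and without replicate 1 of both pool sizes the difference was 1.65 (limma, unadjusted p = 0.13). Pum2 stood at 9.89, 7.84 and 7.50 against 6.36, 6.82 and 6.37. Here replicate 1 of the pools of 100 carried much of the gap, and without replicate 1 of both pool sizes the difference was -1.08 (unadjusted p = 0.20). In that setting Ngly1 (-1.35) and Rnf208 (1.58) also had an unadjusted p above 0.05, while Serpini1 (2.59) and Zfp57 (2.62) stayed under it. The arrays left in had served in choosing these genes too. Of the genes named for their p or their difference, 18 have other probe sets, 31 in all. Of these 31, 16 had a difference of the same sign as the named probe set and 1, of Ecpas, had an unadjusted p under 0.05, at 1.11. The remaining probe sets of Ecpas went both ways, with differences of -0.98, -0.41, 0.37 and 0.47.

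Gene families were then described over genes, with each gene's level set to the median over the probe sets that name it. The 62 families held 2764 genes, of which 48 (1.74%) had an unadjusted p under 0.05 with a higher mean in the pools of 400 and 22 (0.796%) with a lower mean, beside 1.48% and 0.928% of all genes. The groups did not overlap in 122 of them (4.41%) on the higher side and 60 (2.17%) on the lower, beside 3.67% and 2.58%. These shares are close to those of all genes. None of the 2764 passed the adjusted test. The family medians ran from -0.26 to 0.35 on the log2 scale, with 49 above and 13 below 0, beside a median of 0.02 over all genes. Without replicate 1 of the pools of 400, 39 were above and 23 below 0, and without replicate 1 of both pool sizes 36 and 26. Of the 62 medians, 43 changed sign in at least 1 of 11 alternatives.

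**Figure D5:**
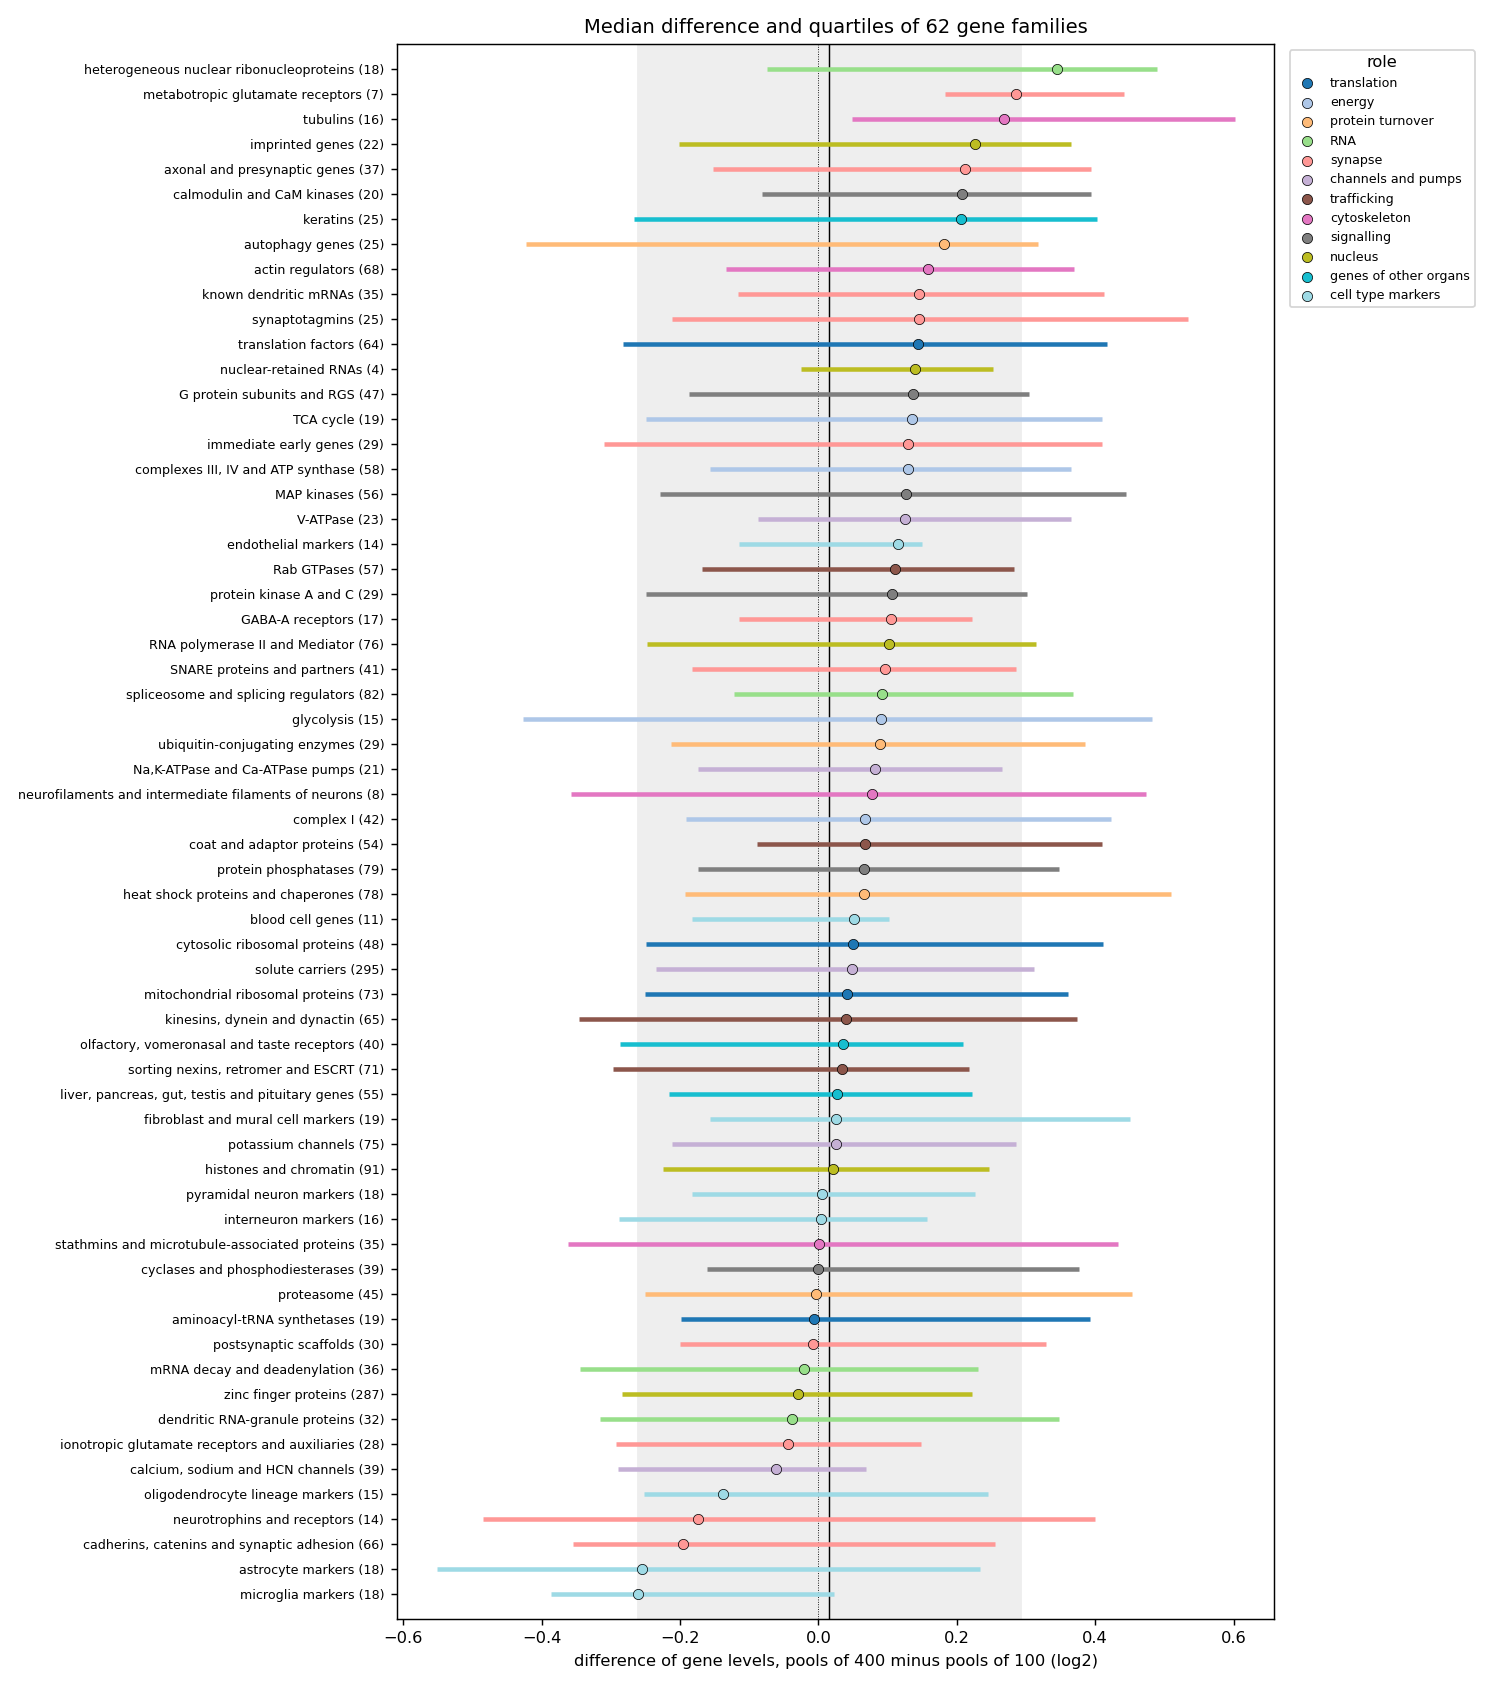
Median difference of pools of 400 minus pools of 100 (log2, points) and quartiles (bars) of the genes of 62 families, with the number of genes in parentheses and the colour giving the family's role. The grey band spans the quartiles of all 14217 genes (-0.26 to 0.29), the solid line is their median (0.02) and the dotted line is 0; the family medians run from -0.26 (microglia markers) to 0.35 (heterogeneous nuclear ribonucleoproteins).

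The machinery of translation sat near the middle. Of 48 cytosolic ribosomal protein genes, 26 had the higher mean in the pools of 400 and 22 the lower, the median difference was 0.05, and none had an unadjusted p under 0.05. Rpl41, whose probe set had the highest signal of the family, stood at 12.80 ± 0.25 (SD, n = 3) in the pools of 100 and 13.09 ± 0.61 in the pools of 400. The smallest unadjusted p was that of Rpl23a, at 8.47, 6.46 and 7.17 against 6.53, 6.06 and 6.03, with overlap. Rpsa, a protein of the small subunit, was the 1 member whose groups did not overlap, at 9.58, 9.28 and 9.73 against 8.73, 9.09 and 8.75. Among 64 translation factors the median was 0.14, with both directions present in the same small group of cap-binding proteins. Eif4e3 was at 8.04, 8.52 and 8.27 in the pools of 100 and 9.71, 9.12 and 8.96 in the pools of 400, and Eif4e2 at 9.84, 9.10 and 8.52 against 7.81, 8.36 and 8.29. These 2 relatives of the main cap-binding factor thus had differences of opposite sign.

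Genes of energy production, mitochondrial and glycolytic, held no called member. Over the 134 genes of complex I, complexes III, IV and ATP synthase, the TCA cycle and glycolysis, the median difference was 0.11. The higher mean was in the pools of 400 for 80 (59.7%), beside 51.5% of all genes. The groups did not overlap in 7 on the higher side and 2 on the lower, beside 3.67% and 2.58% of all genes. An unadjusted p under 0.05 was found for 6 on the higher side and 0 on the lower, beside 1.48% and 0.928% of all genes. Uqcr11, a subunit of complex III, stood at 9.40, 9.28 and 11.12 in the pools of 100 and 11.27, 11.27 and 11.35 in the pools of 400. The pools of 400 hardly varied, and the gap lay in replicates 1 and 2 of the pools of 100. Ndufb5 of complex I was at 9.84, 10.86 and 10.23 against 10.93, 11.65 and 11.45. The other 4 of the 6 were Ndufc2 of complex I (1.43), Uqcc5, an assembly factor of complex III (1.26), Pdhb of pyruvate dehydrogenase (0.99) and Idh3b of the TCA cycle (1.93). Of these, Uqcc5 stood at 6.12, 7.39 and 6.65 in the pools of 100 and 8.39, 7.62 and 7.92 in the pools of 400, without overlap. The mitochondrially encoded COX1 went slightly the other way, at 14.03 ± 0.20 (SD, n = 3) in the pools of 100 and 13.80 ± 0.67 in the pools of 400.

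In protein turnover, the proteasome's 45 genes had a median of 0.00, with 22 on the higher and 23 on the lower side. Ubiquitin-conjugating enzymes had 20 of 29 on the higher side and a median of 0.09. Ube2v2 and Ube2o, both of this family, were the 2 with an unadjusted p under 0.05, both higher, beside 1.48% of all genes on that side. The proteasome also had 2 such genes, Psmd10 and Psmb2, both higher. Ube2o stood at 7.13, 5.64 and 7.10 in the pools of 100 and 7.97, 8.09 and 8.57 in the pools of 400. Among 78 heat shock proteins and chaperones the median was 0.07, and the endoplasmic reticulum chaperone Hspa5 stood at 11.22 ± 1.77 (SD, n = 3) in the pools of 100 and 12.65 ± 0.51 in the pools of 400, overlapping.

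The heterogeneous nuclear ribonucleoproteins, which bind pre-mRNA and in part travel with dendritic mRNA, had the highest family median, 0.35, with 13 of 18 members on the higher side. None had an unadjusted p under 0.05, and the smallest was that of Hnrnpa2b1, a protein that binds dendritic targeting elements, at 6.17, 6.85 and 6.30 against 6.80, 7.41 and 7.09. Hnrnpl was the member with groups apart on that side, at 11.12, 11.42 and 11.56 against 11.96, 12.21 and 11.76. The family's median was 0.04 when a gene was taken as its brightest probe set and -0.13 without replicate 2 of the pools of 400. Proteins of dendritic RNA granules (32 genes, median -0.04) and of mRNA decay (36 genes, median -0.02) did not share the direction. In the decay group Dis3l2, an exonuclease, was at 9.27, 7.18 and 9.80 in the pools of 100 and 7.97, 6.64 and 6.07 in the pools of 400, with overlap, and Upf2, a factor of nonsense-mediated decay, was at 7.30, 6.18 and 6.59 against 5.73, 5.47 and 5.61.

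Synaptic families went both ways. The axonal and presynaptic genes had a median of 0.21, with 23 of 37 on the higher side. Of the 37, 2 had an unadjusted p under 0.05, both higher, beside 1.48% of all genes on that side. That median was 0.089 without replicate 1 of the pools of 400, 0.094 and 0.085 without replicates 2 and 3 of the pools of 100, and the array medians overlapped, at 8.44 to 8.78 against 8.41 to 8.67. Syp, the synaptic vesicle protein synaptophysin, stood at 10.62, 11.08 and 10.69 in the pools of 100 and 11.78, 11.90 and 12.45 in the pools of 400. Stx1a, a SNARE protein of the presynaptic membrane, stood at 7.30, 8.84 and 7.98 in the pools of 100 and 9.34, 8.96 and 9.32 in the pools of 400. The list of mRNAs known from dendrites had a median of 0.15, with 20 of 35 on the higher side, also with 2 members at an unadjusted p under 0.05. Its median was 0.089 without replicate 1 and 0.041 without replicate 3 of the pools of 400, and 0.054 without replicate 1 of both pool sizes. Arc, an activity-regulated gene whose mRNA is carried into dendrites, was at 6.23, 6.10 and 6.81 in the pools of 100 and 7.88, 7.50 and 7.37 in the pools of 400. Cnih2, an auxiliary subunit of AMPA receptors, was at 10.67, 9.77 and 11.37 against 11.89, 11.65 and 11.66, with almost no spread among the pools of 400. The share of axonal RNA in each pool was not measured.

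Receptors of the postsynaptic side stayed near 0 or rested on few genes. Ionotropic glutamate receptors and their auxiliaries had a median of -0.04 over 28 genes, GABA-A receptors 0.11 over 17 and postsynaptic scaffolds -0.01 over 30. The 7 metabotropic glutamate receptors had a median of 0.29 (0.16 without replicate 1 of both pool sizes), with 6 on the higher side, but none had groups that did not overlap and the smallest unadjusted p, that of Grm2, was 0.20.

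Cell adhesion genes had the lowest median among the families of more than 20 genes. Of 66 cadherins, catenins and synaptic adhesion molecules, 41 had the lower mean in the pools of 400, and the median was -0.20. The groups did not overlap in 5 on the lower side and 3 on the higher, beside 2.58% and 3.67% of all genes. An unadjusted p under 0.05 was found for 3 on the lower side and 0 on the higher, beside 0.928% and 1.48% of all genes. Pcdh9, a protocadherin, stood at 8.69, 9.51 and 9.82 in the pools of 100 and 6.94, 7.91 and 7.84 in the pools of 400. Cntn6, a contactin of the immunoglobulin superfamily, was at 7.66, 7.37 and 7.30 against 5.54, 6.67 and 6.14. The third, Pcdh20, was at 8.68, 7.63 and 7.16 against 6.51, 6.56 and 7.38, with overlap. Ctnnd2, delta-catenin, whose probe set had the highest signal of the family, hardly differed, at 11.71 ± 0.05 (SD, n = 3) and 11.59 ± 0.09. The family's median stayed below 0 in each of the 11 alternatives, between -0.25 and -0.08, but its array medians overlapped, at 7.58 to 7.89 in the pools of 400 and 7.70 to 8.02 in the pools of 100.

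Among cytoskeletal genes, the tubulins had a median of 0.27 with 12 of 16 on the higher side, and the median stayed above 0 in each of the 11 alternatives, between 0.13 and 0.43. Their array medians overlapped, at 8.18 to 8.46 in the pools of 400 and 8.22 to 8.43 in the pools of 100. No tubulin had an unadjusted p under 0.05. Tubb4b stood at 10.74, 11.32 and 10.90 in the pools of 100 and 11.70, 12.69 and 11.04 in the pools of 400, with overlap, and Tubb4a at 9.94, 10.34 and 10.25 against 11.25, 10.70 and 10.35. The neuronal Tubb3 had nearly equal means, 8.25 ± 0.21 (SD, n = 3) and 8.15 ± 0.99. Actin regulators had a median of 0.16 over 68 genes, with Actn4, an actin crosslinker, at 6.73, 7.13 and 7.99 against 8.20, 8.32 and 8.22 and Wasf3, an activator of Arp2/3, at 9.36, 9.10 and 9.39 against 8.42, 8.79 and 7.97. This pair acts on the same actin network and differed in opposite directions. Stathmins and microtubule-associated proteins had a median of 0.00 over 35 genes.

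In signalling, protein kinase A and C genes had a median of 0.11 over 29 genes, which changed sign in 6 of 11 alternatives, and the largest single difference of any family, in Prkar1a, the regulatory subunit RI alpha of protein kinase A, at 2.62. Its values show why this difference is hard to read, at 7.55, 7.68 and 11.29 in the pools of 100 and 11.06, 12.03 and 11.29 in the pools of 400. Replicate 3 of the pools of 100 lay among the larger pools. Ppp1r12a, a targeting subunit of myosin phosphatase, was steadier, at 7.85, 7.86 and 7.35 against 6.49, 6.39 and 6.79. Its values are medians of 4 probe sets and those of Prkar1a of 3. Such medians do not show whether the single probe sets went the same way.

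Over all genes, the groups did not overlap in 3.67% on the higher side and 2.58% on the lower. The 62 families share the same arrays and are not independent of each other. Their array medians lay wholly lower in the pools of 400 in 0 families and wholly higher in 5. These were the ubiquitin-conjugating enzymes (7.59 to 7.80 against 7.34 to 7.58), the synaptotagmins (7.52 to 7.61 against 7.14 to 7.42), the V-ATPase (8.24 to 8.36 against 7.72 to 8.15), the protein phosphatases (7.92 to 8.10 against 7.80 to 7.85) and the G protein subunits and RGS proteins (7.92 to 8.07 against 7.68 to 7.90). In each of them the gap between the pool sizes was smaller than the range within the more variable pool size. In 2 of the 5, the synaptotagmins and the G protein group, the median difference turned to the other side of 0 in 1 of the 11 alternatives.

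Ion channels and transporters had small medians. Potassium channels had a median of 0.03 over 75 genes and calcium, sodium and HCN channels -0.06 over 39. The 295 solute carriers, the largest family, had a median of 0.05. Of these, 4 had an unadjusted p under 0.05 on the higher side and 0 on the lower, beside 1.48% and 0.928% of all genes. Slc6a6, a taurine transporter, stood at 6.59, 7.42 and 6.68 against 7.88, 8.16 and 8.84, and Slc25a1, the mitochondrial citrate carrier, at 9.10, 9.24 and 9.78 against 10.20, 10.52 and 10.46. Rab GTPases had a median of 0.11 over 57 genes and motor proteins 0.04 over 65, and neither family had a member that passed the adjusted test.

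Nuclear families did not separate the pool sizes either. Zinc finger proteins had a median of -0.03 over 287 genes. Of these, 5 had an unadjusted p under 0.05 on the higher side and 4 on the lower, beside 1.48% and 0.928% of all genes. Imprinted genes had a median of 0.23 over 22 genes, in which Plagl1, a zinc finger transcription factor, differed most, at 6.00, 5.78 and 8.54 in the pools of 100 and 8.14, 10.64 and 9.14 in the pools of 400. The imprinted median was -0.04 without replicate 1 of both pool sizes. Genes of other organs, which these neurons would not need, gave the background of such lists, with medians of 0.04 for olfactory, vomeronasal and taste receptors (40 genes), 0.03 for liver, pancreas, gut, testis and pituitary genes (55 genes) and 0.21 for keratins (25 genes, -0.06 without replicate 1 of both pool sizes). The keratin median was of the size of that of the axonal and presynaptic genes. It changed sign in 2 of 11 alternatives, and the axonal and presynaptic median in 0 of 11.

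The 18 pyramidal neuron markers had a median difference of 0.01, with 9 on either side. The median was -0.12 without replicate 1 of both pool sizes and changed sign in 5 of 11 alternatives. The 1 member with an unadjusted p under 0.05 was Pou3f1, a POU-domain transcription factor, at 5.36, 6.83 and 5.55 in the pools of 100 and 6.65, 7.68 and 7.35 in the pools of 400, with overlap. Neurod2, a transcription factor of excitatory neurons, stood at 13.44, 13.76 and 13.52 in the pools of 100 and 13.36, 13.48 and 13.88 in the pools of 400, and Nrgn, the calmodulin-binding protein neurogranin, at 12.23, 12.13 and 12.17 against 11.79, 12.15 and 12.21. Signals of different probe sets cannot be ranked as amounts of RNA, and no detection calls were used, so presence or absence was not called for any marker.

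Markers of glia had lower medians in the pools of 400. The 18 astrocyte markers had a median of -0.26, with 11 on the lower side and array medians of 7.30 to 7.98 in the pools of 400 against 7.42 to 8.43 in the pools of 100. The 18 microglia markers had a median of -0.26, with 12 on the lower side and array medians of 6.96 to 7.48 against 7.35 to 7.69. Both overlapped. Both medians stayed below 0 in each of the 11 alternatives, but the astrocyte median was -0.14 without replicate 1 and -0.10 without replicate 3 of the pools of 400, and the microglia median came as near to 0 as -0.10. Only Fabp7, a fatty acid binding protein of radial glia and astrocytes, had an unadjusted p under 0.05 by limma among these 36 genes.

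Of the 18 astrocyte markers, 7 had the higher mean in the pools of 400, by up to 0.51. The 3 genes given next had larger differences, all lower, and varied by array. Fabp7 stood at 11.19, 10.82 and 11.79 in the pools of 100 and 8.23, 11.99 and 7.25 in the pools of 400. S100b, a calcium-binding protein of astrocytes, was at 9.77, 9.52 and 11.03 against 7.70, 10.75 and 7.55, and the aldolase gene Aldoc at 10.61, 8.53 and 9.61 against 7.23, 10.05 and 7.99. In all 3 genes, replicate 2 of the pools of 400 was level with the pools of 100 and the other 2 pools of 400 were lower. Variation between arrays, fewer processes of a cell type and less RNA per process could not be told apart here. Whether glial RNA had a part in other differences was not tested. Interneuron markers had a median of 0.00 over 16 genes (-0.32 without replicate 1 of both pool sizes) and oligodendrocyte lineage markers -0.14 over 15.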

How the data were processed

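The deposited values were log2 probe set signals, which the authors made with RMA 2.0 (per the labels) after repeated RNA amplification. The 9 arrays had medians of 7.46 to 7.53, and the median centring and scaling of the study's methods was not in these values. The 57 array controls were set aside. Probe sets were named from the platform's gene table, with 20758 symbols updated by Entrez ID, and probe sets sharing 1 gene were summarised by their median. The test was limma (version 3.58.1, under R 4.3.3) with 1 group-means model of all 9 arrays, two-sided, with Benjamini-Hochberg adjustment over 31042 probe sets or 14217 genes and a threshold of 0.05. An unadjusted p is the p of the same model. The typical SD is the square root of the median variance over probe sets, corrected for the number of arrays.

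Named were the 12 probe sets of smallest p and the 8 largest differences between groups apart in each direction, and, per family, the 2 genes of smallest p and the gene of highest signal, of which the text gives only some; Tubb3, Pcdh20 and S100b were added after their values were seen. The families and this rule were chosen with earlier results of these data known. Python 3.11.15, numpy 2.4.6, pandas 2.3.3, scipy 1.17.1 and matplotlib 3.10.9 served for the rest.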

Additional observations from a re-analysis of the deposited data

How the results depend on the processing

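The count of probe sets or genes with an adjusted p under 0.05 was 0 in the main model and under each alternative: other normalizations, the brighter part of the probe sets, the 6 arrays alone, other variance settings, the methods' t-test, array weights, the brightest probe set per gene, each array left out, and, chosen after seeing the data, replicate 1 of both pool sizes left out. An unadjusted p under 0.05 was found for 687 of all 31042 probe sets and for 330 of the brighter 15521, a smaller number tested. The count over all probe sets was 1565 with array weights and 1547 without replicate 1 of both pool sizes. It ran from 730 to 1097 with 1 array left out, at 1052 without replicate 2 of the pools of 100 and 1097 without replicate 1 of the pools of 400. Over genes it was 342, and 675 without replicate 1 of both pool sizes, with a range of 365 to 517 with 1 array left out, the highest without replicate 1 of the pools of 400. With no true difference, a share of about 0.05 of the tests is expected under that threshold. The cause of the changes in count was not tested.

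The ratio of the SDs, 1.09, ran from 0.867 to 1.32 with 1 array left out and was under 1 without replicate 1 of the pools of 400, 0.8666, and without replicate 1 of both pool sizes, 0.9968. The within-minus-between correlation, -0.02, was -0.04 to -0.01 with 1 array left out and turned to 0.003084 without replicate 1 of both pool sizes. With the replicate number as a block, 725 probe sets and 362 genes had an unadjusted p under 0.05 and 0 an adjusted p under 0.05. Deviations of same-numbered arrays from their group means correlated at -0.19, 0.02 and 0.07, so the arrays were taken to share only a number.

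The direction of the 35 probe sets named for their p or their difference is no sign of stability, since they were chosen by these values and their groups do not overlap. Of 682 recomputed family medians, 23 moved by more than the SD between arrays, and 43 of the 62 families changed sign in at least 1 alternative. With 3 arrays per pool size, the unadjusted 95% interval of a typical probe set reached 1.08 log2 units to either side, and after adjustment a difference of 3.21 was not called.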
